A study of Mus musculus with 12 samples.

Results

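mmu-miR-20b, mmu-miR-106a, mmu-miR-106b, mmu-miR-93 and mmu-miR-25 were followed across wild type and ATF6a knockout mouse embryonic fibroblasts given tunicamycin. They belong to the miR-106a cluster (miR-106a and miR-20b) and the miR-106b~25 cluster (miR-106b, miR-93 and miR-25), and were chosen by name; the rule uses no measured value, though earlier results of these data were known when the clusters were picked. Of these 5 miRNAs, 4 had rows among the 650 miRNAs on the arrays, and these 4 were also among the 175 miRNAs that passed the filter on dim probes. mmu-miR-106a was not analysed here, so the miR-106a cluster is represented by miR-20b. miR-20b was the only one of the 4 called with tunicamycin in the fit described here. It rose 1.60-fold in wild type cells at 12 h, 1.81-fold in wild type cells at 24 h and 1.54-fold in knockout cells at 12 h.

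miRNAs of these clusters are cut from shared primary transcripts that each carry several hairpins. Mature miRNAs pair with messenger RNAs through bases 2 to 8, the seed, and miRNAs with the same seed share many targets. The miR-17~92, miR-106a and miR-106b~25 clusters are copies of one ancestral cluster. They are known for driving cell cycle entry and survival, through targets that include the cell cycle inhibitor Cdkn1a and the pro-apoptotic gene Bcl2l11. Tunicamycin blocks N-linked glycosylation, so that misfolded proteins collect in the endoplasmic reticulum. ATF6a is one of the sensors of that stress: it is cut in the Golgi, and the released part is a transcription factor that raises chaperone genes.

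RefSeq (GRCm38.p6) placed the hairpins of both clusters on the minus strand. The miR-106b~25 cluster held 3 hairpins, Mir106b, Mir93 and Mir25 in order of transcription, within 498 bases at chr5:138165321-138165818, inside the span of the protein-coding gene Mcm7, whose intron it occupies. The miR-106a cluster held 6 hairpins within 875 bases at chrX:52741693-52742567, in the order Mir106a, Mir18b, Mir20b, Mir19b-2, Mir92-2 and Mir363. The 5 mature sequences are shown first, followed by 3 from the miR-17~92 cluster on chromosome 14, because probes must tell them apart. Sequences are 5′ to 3′, and capitals mark the seed. All 5 were found in RefSeq, under the arm that the array's unstarred name stood for.
mmu-miR-20b-5p: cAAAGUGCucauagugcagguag
mmu-miR-106a-5p: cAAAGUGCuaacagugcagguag
mmu-miR-106b-5p: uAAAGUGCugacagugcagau
mmu-miR-93-5p: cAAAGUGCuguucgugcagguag
mmu-miR-25-3p: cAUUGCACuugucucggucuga
mmu-miR-17-5p: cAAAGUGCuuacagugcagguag
mmu-miR-20a-5p: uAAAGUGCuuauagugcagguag
mmu-miR-92a-3p: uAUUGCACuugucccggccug
miR-20b, miR-106a, miR-106b and miR-93 carry the seed AAAGUGC of the miR-17 family, and miR-25 carries AUUGCAC, the seed of miR-92a.

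Outside the seed the miR-17 family members differed at few positions, counted from 1 at the 5′ end of the first miRNA named. miR-106a differed from miR-17 by A10U alone. miR-20b differed from miR-106a by C10A and U12C, from miR-20a by C1U and C10U, and from miR-93 by C10G, A11U and A13C. miR-106b differed from miR-20a by G10U, C12U and A20G over 21 shared bases, and miR-25 from miR-92a by C1U, U14C and U18C. Of 7 RefSeq mouse mature miRNAs with the seed AAAGUGC, 5 had a name on the array and 4 passed the filter: miR-20a, miR-20b, miR-93 and miR-106b. Of 6 with the seed AUUGCAC, all had a name on the array and 2 passed, miR-25 and miR-92a. The array's probe sequences were not used here, so how far a probe read a near-identical miRNA was not tested, and the values of miR-20b are uncertain to that extent.

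Embryonic fibroblasts of C57BL/6 background, labelled ATF6aWT (WT) or ATF6aKO (KO), were left untreated or given 2 ug/mL tunicamycin for 12 or 24 h. Each of the 6 groups had 2 arrays, hybridised with 100 ng of total RNA. The labels number them as replicates and do not say whether they came from separate embryos, lines or cultures, so p-values measure the spread between these arrays, which may be technical. ATF6a is not measured on a miRNA array, so the genotype labels were not checked. Of 9 fibroblast and mesenchymal marker miRNAs, between 6 and 8 were well above background on each array. The blood, neural, epithelial, liver and endothelial markers listed were well above background on 0 arrays, while miR-294 of the pluripotent and germ list and miR-206 of the muscle list were on at least 1 array each. Between 160 and 166 miRNAs were well above background on untreated arrays, between 127 and 155 on the treated arrays of scanning run 3 and between 73 and 101 on those of scanning run 4. All untreated arrays shared 1 slide and all treated arrays another, and wild type and knockout samples lay in different rows of each slide, so effects of slide and treatment cannot be told apart, nor can those of position and genotype.

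Levels are given as log2 of the spot signal after dividing by each array's 75th percentile over 87 probes, so a change of 1 is a doubling, and levels of different miRNAs are not comparable because their probes differ. miR-20b stood at -3.56 and -3.46 in untreated wild type cells, -2.85 and -2.82 at 12 h and -2.75 and -2.56 at 24 h. In knockout cells it stood at -3.51 and -3.52 untreated, -2.76 and -3.02 at 12 h and -3.20 and -3.29 at 24 h. Every treated array was above all untreated arrays of both genotypes. The highest levels were those of wild type cells at 24 h and the lowest treated levels those of knockout cells at 24 h. The untreated genotypes overlapped, and so did the genotypes at 12 h.

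**Figure D1:**
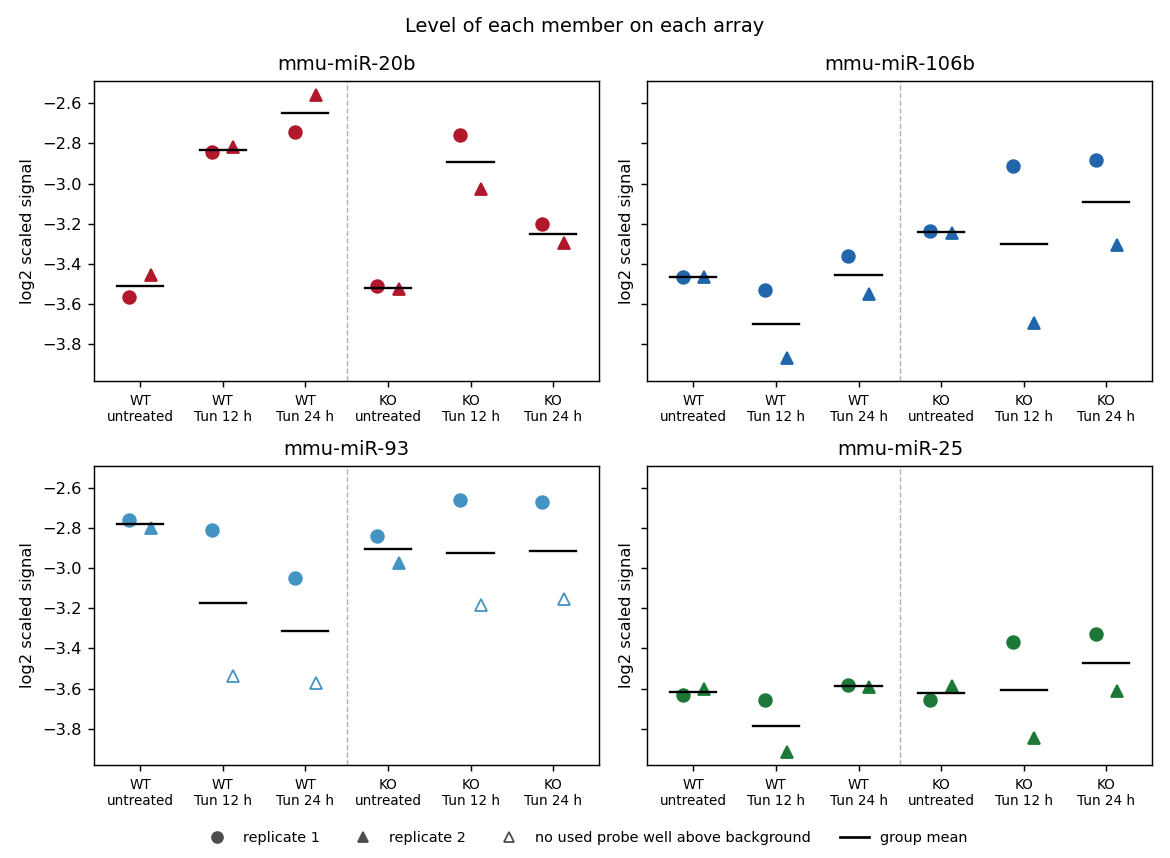
Level of each of the 4 miRNAs (log2 scaled signal, vertical axis) in the 6 groups (horizontal axis; Tun, tunicamycin), with circles for replicate 1, triangles for replicate 2, open symbols where no probe used was well above background and black lines for group means. miR-20b, the mean of 2 probes, runs from -3.56 to -2.56 with close replicates. miR-106b, miR-93 and miR-25 are lower on the replicate 2 array of every treated group, as is the brighter probe of miR-20b taken alone. Levels are not comparable between panels.

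In limma's fit over all 175 miRNAs, a miRNA was called at a Benjamini-Hochberg adjusted p under 0.05. miR-20b rose in wild type cells by 0.68 ± 0.11 (SE, n = 2 against 2) at 12 h, with an adjusted p of 0.00201. Of the 4 miRNAs it was the only one called, where 11 of all 175 miRNAs were called higher (6.29%) and 67 lower. At 24 h the wild type rise was 0.86 ± 0.11 (adjusted p = 0.000861), again for miR-20b alone. Of all miRNAs 13 were called higher there (7.43%) and 59 lower. In knockout cells miR-20b rose by 0.63 ± 0.11 at 12 h (adjusted p = 0.00916), where 5 of all miRNAs were called higher (2.86%) and 25 lower. At 24 h the knockout change of 0.27 ± 0.11 was not called (adjusted p = 0.17), with an interval from 0.02 to 0.52. Of all miRNAs 4 were called higher and 14 lower there, 10.3% in either direction.

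The median change of all 175 miRNAs was -0.27 in wild type cells at 12 h, -0.21 at 24 h, -0.09 in knockout cells at 12 h and 0.00 at 24 h. Relative to those medians miR-20b was higher by 0.95, 1.07, 0.71 and 0.27. Scaled instead on all probes, which moved the medians to -0.56, 0, -0.77 and -0.50, miR-20b was higher than them by 0.64, 1.00, 0.21 and 0.03. Under that scaling its change in knockout cells at 12 h, not set against the median, turned to -0.55. No member was called in any comparison by limma's adjusted p, nor with quantile normalization, normexp or the summed signal. In wild type cells at 12 h scaling on all probes called 0 of all 175 miRNAs, with an SE of 1.01 for miR-20b against 0.11. Quantile normalization called 0 higher and 10 lower there, normexp 1 and 4, and the summed signal 1 and 28 of 204. With the scanning run as a random block the 3 rises stayed called, with adjusted p of 0.0029, 0.00135 and 0.0102. Without the first or the second untreated knockout array the knockout rise at 12 h had adjusted p of 0.0356 and 0.0501, so leaving out replicate 2 ended that call.

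Both probes of miR-20b moved the same way in each treatment comparison. The brighter probe, well above background on all 12 arrays, changed by 0.80, 0.97, 0.52 and 0.22 in wild type cells at 12 and 24 h and knockout cells at 12 and 24 h. The dimmer probe, well above background on 8 arrays, changed by 0.55, 0.75, 0.73 and 0.32. On the brighter probe alone the knockout rise at 12 h was no longer called (adjusted p = 0.127), while both wild type rises were (0.0129 and 0.00713). The 4 arrays on which the dimmer probe was not well above background were the treated arrays of scanning run 4. On the brighter probe replicate 2 was lower in each treated group. It stood at -1.83 and -2.11 in wild type cells at 12 h and -1.80 and -1.81 at 24 h. In knockout cells it stood at -1.95 and -2.48, then -2.36 and -2.68. The close replicates of miR-20b thus rest on averaging with the dimmer probe. For the wild type change at 12 h the SE was 0.19 on the brighter probe, against 0.11.

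The level of miR-20b was not called different between 24 h and 12 h in limma's fit. In wild type cells the difference was 0.18 ± 0.11 (adjusted p = 0.596), where 1.14% of all miRNAs were called, and the differences within scanning runs 3 and 4 were 0.10 and 0.26. In knockout cells it was -0.36 ± 0.11 (adjusted p = 0.192), where 2.29% of all miRNAs were called, with -0.45 and -0.27 within the runs. The unadjusted p of the knockout difference was 0.012 in limma's fit. The 2 groups did not overlap, but an exact permutation test of 2 against 2 arrays cannot go below 0.333. None of the other 3 miRNAs was called in either of these comparisons.

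The 3 miRNAs of the miR-106b~25 cluster were not called with tunicamycin in either genotype. miR-106b, the first hairpin of the cluster and a miR-17 family member, stood at -3.46 and -3.47 in untreated wild type cells, -3.53 and -3.87 at 12 h and -3.36 and -3.55 at 24 h. The knockout levels were -3.24 and -3.25 untreated, -2.91 and -3.69 at 12 h and -2.88 and -3.31 at 24 h. Untreated replicates lay close together and treated ones further apart, with replicate 2 lower in all 4 treated groups. Its changes against untreated cells ranged from -0.23 to 0.15, each with an SE of 0.26 (adjusted p from 0.507 to 1.00). The interval at 12 h in wild type cells ran from -0.85 to 0.38, so a rise as large as that of miR-20b there, 0.68, lay outside it.

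miR-93, which also carries the miR-17 seed, stood at -2.76 and -2.80 in untreated wild type cells, -2.81 and -3.54 at 12 h and -3.05 and -3.57 at 24 h. Knockout cells had -2.84 and -2.97 untreated, -2.66 and -3.19 at 12 h and -2.67 and -3.16 at 24 h. Both wild type treated groups lay below both untreated arrays, and the knockout treated groups spanned the untreated ones. The wild type changes were -0.39 ± 0.31 and -0.53 ± 0.31 (adjusted p = 0.349 and 0.237), and the knockout changes -0.02 and -0.01 with the same SE. With the scanning run as a block, limma called miR-93 lower in wild type cells at 12 h (adjusted p = 0.0106) and 24 h (0.00487). In that fit 75 and 64 of all 175 miRNAs were called lower. Each run held only untreated or only treated arrays, so that block cannot separate run from treatment. As a random block the adjusted p were 0.231 and 0.131. The value rests on 1 probe, which in each treated group was well above background on 1 of 2 arrays: on the replicate 2 arrays between 0% and 40% of its spots were, against 100% on all replicate 1 and untreated arrays.

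miR-25, the last hairpin of the cluster and the one with the miR-92a seed, stood at -3.63 and -3.60 in untreated wild type cells, -3.66 and -3.91 at 12 h and -3.58 and -3.59 at 24 h. In knockout cells it stood at -3.66 and -3.59 untreated, -3.37 and -3.84 at 12 h and -3.33 and -3.61 at 24 h. The groups overlapped or lay close in both genotypes: the changes ranged from -0.17 to 0.15 with an SE of 0.17 (adjusted p from 0.457 to 1.00). The dimmer of its 2 probes was at the floor on 9 of 12 arrays, so these changes depend on the floor. With a lower floor they were -0.42 and -0.45 in wild type cells and -0.15 and 0.05 in knockout cells at 12 and 24 h, none called by limma (adjusted p from 0.35 to 0.926), and the sign turned in wild type cells at 24 h and knockout cells at 12 h. The brighter probe changed by -0.34 and 0.07 in wild type cells and by 0.00 and 0.28 in knockout cells, at 12 and 24 h.

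Replicate 2 was low for these 3 miRNAs on the arrays of scanning run 4, which also had the fewest miRNAs above background. Without those 4 arrays each treated group held 1 array, so its spread could not be measured and only sizes are given. In knockout cells miR-106b then changed by 0.33 at 12 h and 0.36 at 24 h. miR-25 changed by 0.25 and 0.29 in the same comparisons, and miR-20b by 0.31 at 24 h. In wild type cells miR-106b, miR-93 and miR-25 changed by -0.27 to 0.11. The part of scanning run in these values was not tested further.

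**Figure D2:**
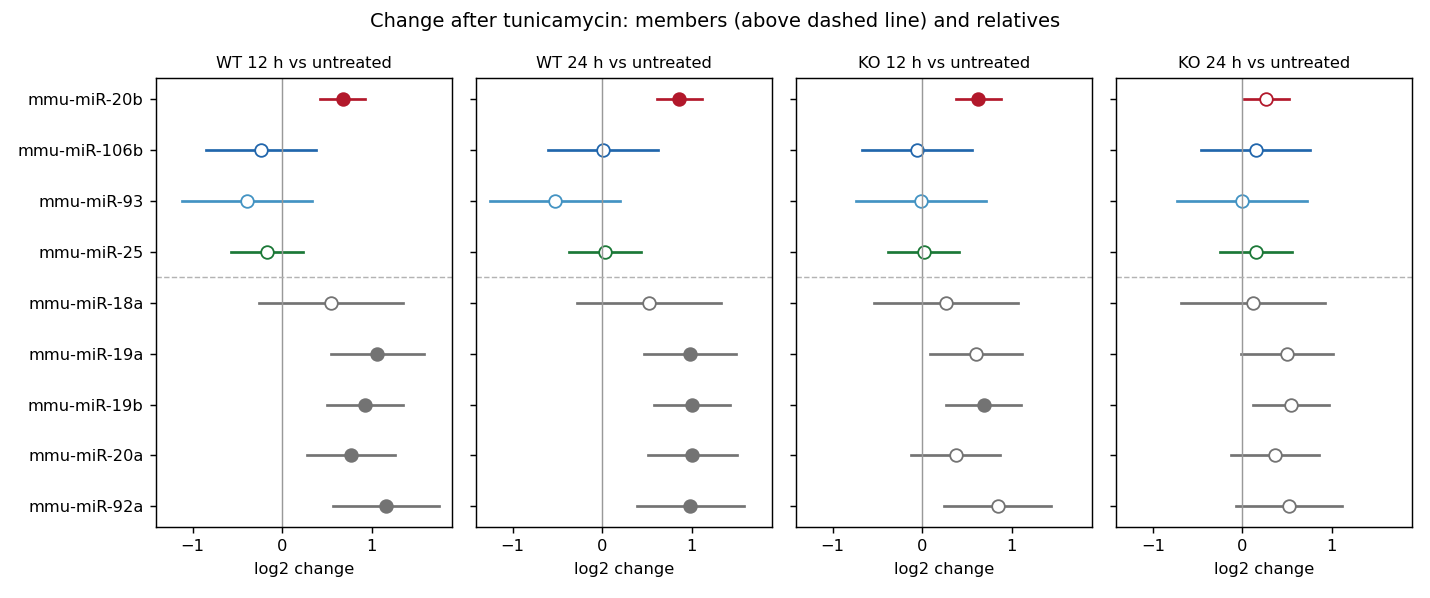
Log2 change against untreated cells of the same genotype (horizontal axis) for the 4 miRNAs, above the dashed line, and 5 relatives in grey, in 4 comparisons; points are limma estimates, filled where the adjusted p is under 0.05, and bars are 95% intervals. miR-20b lies at 0.68, 0.86, 0.63 and 0.27, close to the relatives, while the intervals of miR-106b, miR-93 and miR-25 cross 0 in every panel.

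Among the relatives of miR-20b in the miR-17~92 and miR-106a clusters, miR-19a, miR-19b, miR-20a and miR-92a rose in wild type cells. Of 8 listed relatives on the array, 5 passed the filter: miR-18a, miR-19a, miR-19b, miR-20a and miR-92a. Of these, 4 were called higher in wild type cells at 12 h and 4 at 24 h, with medians of the 5 of 0.92 and 0.99, against -0.27 and -0.21 over all miRNAs tested, of which 6.29% and 7.43% were called higher. In knockout cells 1 of the 5 was called at 12 h, miR-19b, beside 2.86% of all miRNAs, and 0 at 24 h, where miR-19b alone had an unadjusted p under 0.05 (0.0191), with medians of 0.60 and 0.50 against -0.09 and 0.00. Scaled on all probes, limma called 0 of 175 miRNAs in any of these 4 comparisons, with 13, 11, 10 and 11 at an unadjusted p under 0.05. Mature miR-19b and miR-92a are made from hairpins on both chromosomes 14 and X, so their signal does not separate the clusters.

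miR-20a, which like miR-17 differs from miR-20b at 2 bases, stood at -2.01 and -1.98 in untreated wild type cells, -1.03 and -1.43 at 12 h and -1.01 and -0.98 at 24 h. Knockout cells had levels of -1.72 and -1.80 untreated, -1.09 and -1.69 at 12 h and -1.27 and -1.53 at 24 h. Treated and untreated arrays did not overlap in either genotype. It rose by 0.77 ± 0.21 and 1.00 ± 0.21 in wild type cells (limma adjusted p = 0.0214 and 0.00726), and its knockout changes of 0.37 and 0.36 were not called (0.278 and 0.342). miR-92a rose by 1.16 ± 0.25 and 0.99 ± 0.25 in wild type cells (0.00819 and 0.016), with knockout changes of 0.84 and 0.52 that were not called (0.0647 and 0.269).

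Other miRNAs that come from the X-linked cluster alone were not well above background. miR-18b and miR-363, which lie beside miR-20b and at the end of its cluster, were well above background on 0 of 12 arrays, as was miR-20b*, the other strand of the miR-20b hairpin. miR-17, from the first hairpin of the miR-17~92 cluster, was also above background on 0 arrays, with a highest signal of 3.68 scanner units. Its partner strand miR-17* was well above background on 9 arrays and was the only one of the partner strands listed that passed the filter; its wild type changes of 0.32 and 0.32 were not called. miR-106b* and miR-93* were above background on 0 arrays.

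Relative to the miR-106b~25 cluster on the same array, miR-20b rose in wild type cells. The mean of miR-106b, miR-93 and miR-25 was subtracted from every other miRNA on each array, a measure added after seeing the data. It removes scaling between arrays only in part, since 1 probe of miR-25 was at the floor on 9 of 12 arrays. The subtracted mean was lower on replicate 2 in each treated group, as at -3.33 and -3.77 in wild type cells at 12 h. The change of the difference over groups can be read with that limit, its sign cannot. The difference was -0.28 and -0.17 in untreated wild type cells, 0.49 and 0.95 at 12 h and 0.58 and 1.01 at 24 h. In knockout cells it was -0.27 and -0.25 untreated, 0.22 and 0.55 at 12 h and -0.24 and 0.06 at 24 h. All wild type treated arrays were above the untreated ones, while knockout cells at 24 h lay beside the untreated level.

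**Figure D3:**
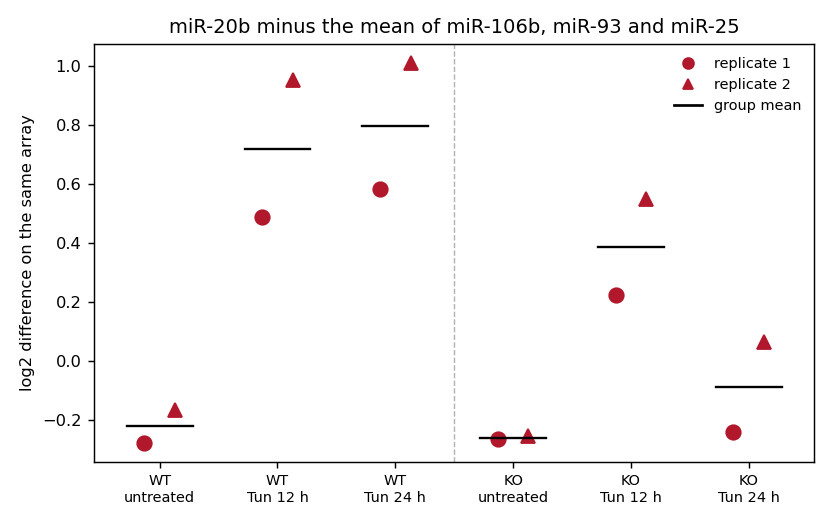
miR-20b minus the mean of miR-106b, miR-93 and miR-25 on the same array (log2 difference, vertical axis) in the 6 groups, with circles for replicate 1, triangles for replicate 2 and black lines for group means. Untreated arrays lie between -0.28 and -0.17, wild type treated arrays between 0.49 and 1.01, and replicate 2 is above replicate 1 in each treated group; the zero of the axis depends on the probes.

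In limma's fit of these differences over 172 miRNAs, the wild type rises were 0.94 ± 0.22 at 12 h (adjusted p = 0.0189; 22.1% of all called) and 1.02 ± 0.22 at 24 h (0.0171; 23.3%). The knockout changes were 0.65 ± 0.22 at 12 h (0.0914; 18% of all called) and 0.17 ± 0.22 at 24 h (0.84; 14%). With shares this high, the calls say little about miR-20b in particular. Leaving out either untreated wild type array ended the wild type calls (adjusted p from 0.0796 to 0.123), as did leaving out replicate 2 at 12 h (0.0679) or at 24 h (0.08). With the scanning run as a random block both stayed called (0.00519 and 0.00354), and the knockout rise at 12 h was then called too (0.0333). Part of the wild type rise at 12 h is a lower subtracted mean, as miR-106b, miR-93 and miR-25 changed by -0.23, -0.39 and -0.17. On this scale the relatives rose there too, from 0.81 for miR-18a to 1.42 for miR-92a.

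Genotype differences were seen for miR-20b at 24 h. It was 1.51-fold lower in knockout than in wild type cells at 24 h, a log2 difference of -0.60 ± 0.11 (limma adjusted p = 0.0134), and it was the only one of the 4 called, beside 9.71% of all miRNAs. The difference was -0.46 within scanning run 3 and -0.74 within run 4, and it stayed called with the run as a block (0.0355). In untreated cells the difference was -0.01 ± 0.11, with 0 of the 4 called beside 28% of all miRNAs, and at 12 h it was -0.06 ± 0.11, with 0 of the 4 called beside 7.43%. In both comparisons 0 of the 4 had an unadjusted p under 0.05 in limma's fit. The call at 24 h ended without wild type replicate 2 (adjusted p = 0.0997) or knockout replicate 2 (0.0847) at 24 h, and on the brighter probe alone (-0.72, 0.0675). The direction was not particular to miR-20b. All 5 relatives were lower in knockout cells at 24 h, with a median of -0.31 against -0.02 over all miRNAs, and 0 called. For miR-20a the difference was -0.41 ± 0.21.

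The wild type and knockout responses of miR-20b at 24 h differed by -0.59 ± 0.15 (knockout minus wild type; adjusted p = 0.045), beside 13.1% of all miRNAs, and those at 12 h by -0.05 ± 0.15 (0.922), beside 9.71%. Matched by replicate number, a pairing the labels do not state, the 24 h difference was -0.51 and -0.67. For the 5 relatives the 24 h responses differed the same way, with a median of -0.47 against 0.20 over all miRNAs, and 0 called. The largest was -0.64 ± 0.30 for miR-20a. The 24 h call is close to the threshold: leaving out any 1 of the 8 arrays in it ended the call (adjusted p from 0.0616 to 0.145), as did the scanning run as a block (0.0746). Averaged over the 3 conditions, miR-20b was lower in knockout cells by 0.22 on the log2 scale, a difference of -0.22 ± 0.06 (0.0275), where 34.3% of all miRNAs were called. That average is carried by the 24 h arrays, its call ended without any 1 of 7 arrays (adjusted p from 0.0554 to 0.0756), namely untreated wild type replicate 2, both wild type arrays at 12 h, wild type replicate 2 at 24 h, both untreated knockout arrays and knockout replicate 2 at 24 h, and it ended with the run as a block (0.0535).

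The miR-106b~25 miRNAs were not called between genotypes in limma's fit. miR-106b was higher in knockout cells by 0.22, 0.39 and 0.36 (SE 0.26) in untreated cells and at 12 and 24 h, with positive differences within all 4 scanning runs, from 0.17 to 0.62. Averaged over conditions it was higher by 0.33 ± 0.15 (adjusted p = 0.159). With the scanning run as a block this average was called (0.0287), as was that of miR-93 (0.17, adjusted p = 0.0409). Of all 175 miRNAs 14 were called higher and 47 lower there. miR-93 differed by -0.13, 0.25 and 0.40 (SE 0.31). Its difference at 24 h, 0.38 in run 3 and 0.42 in run 4, was called with the run as a block (0.0382). Of all miRNAs 8 were called higher and 13 lower there. The difference between its 24 h responses was called too (0.52, 0.0477), beside 17 higher and 5 lower. miR-25 differed by 0.00, 0.18 and 0.11 (SE 0.17), with no call in either fit. Leaving out the 4 arrays of scanning run 4 left 1 array in each treated group, so only sizes are given. miR-106b was then higher in knockout cells by 0.22, 0.62 and 0.48 in the 3 conditions, and by 0.44 averaged over them. miR-25 was higher by 0.29 at 12 h and 0.18 averaged, and the average of miR-20b was -0.13.

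**Figure D4:**
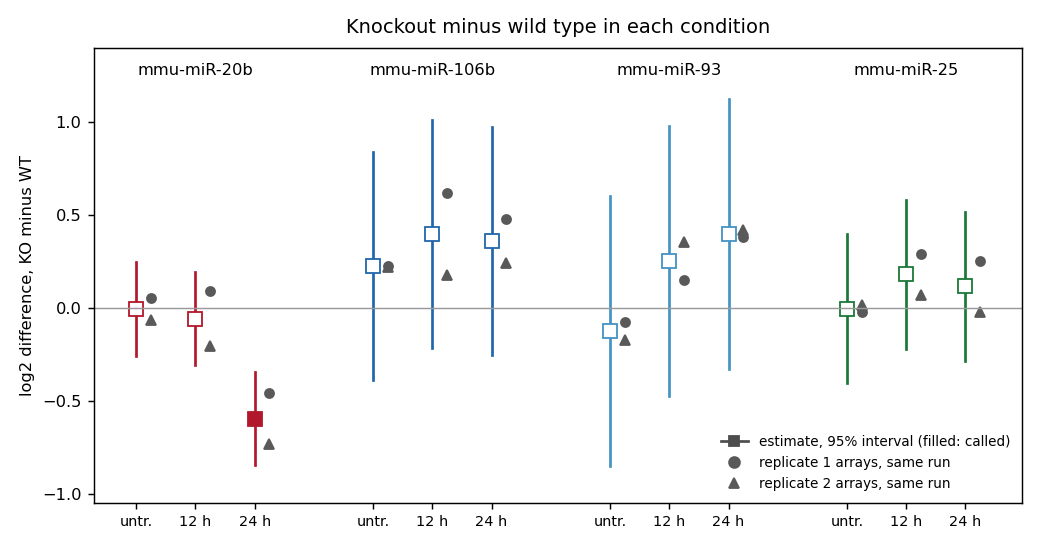
Knockout minus wild type level (log2, vertical axis) of the 4 miRNAs in untreated cells and after 12 and 24 h of tunicamycin; squares are limma estimates with 95% intervals, filled where the adjusted p is under 0.05, and grey circles and triangles are the differences between arrays of the same scanning run. Only miR-20b at 24 h, at -0.60, has an interval clear of 0, and miR-106b lies above 0 in every condition and run.

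Relative to the miR-106b~25 mean, the genotype difference of miR-20b at 24 h was -0.89 ± 0.22 (limma adjusted p = 0.0268; 18% of 172 miRNAs called). The difference of the 24 h responses on this scale was -0.85 ± 0.31 and was not called (0.232; 5.81% of all called). The first of these calls ended without wild type replicate 2 (0.188), knockout replicate 1 (0.196) or knockout replicate 2 (0.0574) at 24 h. With the scanning run as a block both differences were called (0.000975 and 0.0126). At 24 h miR-106b, miR-93 and miR-25 were themselves higher in knockout cells, by 0.36, 0.40 and 0.11, which adds to the -0.89. The relatives were lower too on this scale, from -0.70 for miR-20a to -0.42 for miR-19a.

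Across the 12 arrays miR-20b did not run with the miR-106b~25 miRNAs. Its Pearson correlations were -0.20 with miR-106b, -0.48 with miR-93 and -0.03 with miR-25, while miR-106b and miR-25 had 0.92 with each other and miR-93 had 0.70 with miR-106b and 0.62 with miR-25. These are descriptions over arrays that share groups, slides and scanning runs. Among all miRNAs tested, those most like miR-20b were miR-92a (0.89), miR-20a (0.88) and miR-19b (0.88). Those most like miR-106b were miR-29a (0.97), miR-15a (0.93) and miR-25 (0.92), and those most like miR-25 were miR-106b (0.92), miR-15a (0.90) and miR-29a (0.87). For miR-93 the highest correlations were lower, with miR-652 (0.74), miR-24 (0.74) and miR-125b-5p (0.70).

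Other measures moved with treatment beside these results, and their part in them was not tested. The summed scaled signal of the 9 fibroblast markers was between 60.0 and 75.9 on untreated arrays and between 31.7 and 49.2 on treated ones. Of 4 entries known to come from pieces of abundant RNAs, miR-689 rose in all 4 treatment comparisons, by 1.00, 2.25, 1.57 and 2.86 in the order used above, and was 0.62 higher in knockout than wild type cells at 24 h (limma adjusted p = 0.0411), where miR-20b was lower. The other 3 entries, miR-690, miR-709 and miR-720, were not called in those comparisons. The summed scaled signal of all 4 ran from 7.99 to 12.3 on untreated arrays and from 8.20 to 13.6 on treated ones. Fewer cells and less RNA per cell cannot be told apart in bulk RNA.

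The scanner software's summed signal, which the deposited log2 table holds, gave other values for these miRNAs. For miR-20b it equalled the sum of the probes' own totals on 11 of 12 arrays, and was 4.04 times that sum on knockout replicate 2 at 24 h, the array with 176 units against 43.6 from its probes. For miR-25 it was 7.90 to 9.33 times the sum on 5 of 12 arrays, all of them treated, and equalled it on the rest. For miR-93 it was 5.85 to 17.2 times the sum on all 11 arrays where it was detected, and for miR-106b it was between 0.79 and 1.00 on all 12. Over all detected miRNAs between 32 and 53 per array exceeded 3 times the sum. With the deposited values, which were not scaled between arrays, the genotype difference of miR-20b at 24 h was 0.89 rather than -0.60. With the summed signal after scaling it was 0.35. Both values include the array with the 4.04-fold excess, so they are not like for like with -0.60. With the deposited values none of the 4 miRNAs was called in any comparison by limma's adjusted p. Of all 158 miRNAs tested between genotypes at 24 h, 0 were called there.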

How the data were processed

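Spot intensities were deposited as the scanner software's background-subtracted processed signal on a linear scale, unscaled between arrays, per the file headers. The submitters' processing notes name Agilent Feature Extraction, version 10.7.1.1. The deposited table holds log2 values that equal log2 of the software's summed signal for detected miRNAs; it served as an alternative. Here control and outlier spots were dropped and spots averaged per probe, giving 1857 probes. A probe was well above background where over 0.5 of its spots were flagged so. Each array was divided by the 75th percentile of those 87 probes that passed on every array, and a floor of 0.0309 was set before log2. A miRNA's value was the mean of its probes that passed on both replicates in 1 group or more. Group means of all 6 groups were fitted with limma 3.58.1 under R 4.3.3 (6 residual and 1.16 prior degrees of freedom), adjusted over 175 miRNAs within each of 12 comparisons, and tested on simulated data; ± is the SE. Named were the 5 miRNAs, listed relatives and partner strands, miRNAs sharing a seed, and the 3 most alike by Pearson correlation. Members and lists were chosen with earlier results of these data known. An exact permutation test of 2 against 2 arrays cannot go below 0.333, so none was used. The normexp alternative took median spot signals, since the planned mean signals were not used here. The number of arrays limits the precision. Mature sequences came from RefSeq, by name.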

Additional observations from a re-analysis of the deposited data

Results flagged for a closer look

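The response of mmu-miR-20b to 24 h of tunicamycin differed between genotypes: knockout minus wild type was -0.59 on the log2 scale (limma adjusted p = 0.045), from 0.86 in wild type and 0.27 in knockout cells. It was picked out because the difference itself passed the test. Matched by replicate number, a pairing the labels do not state, it was -0.51 and -0.67. These are parts of the same estimate. The 5 relatives differed in the same direction, with a median of -0.47 and 0 called. The call did not survive leaving out any 1 of the 8 arrays.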

How the results depend on the processing

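The 2 wild type rises of miR-20b kept their call when any 1 array was left out (1 member called each time), and the other counts ranged over 0 to 1 for the knockout at 12 h and for the genotypes at 24 h, 0 to 2 for the genotype average, and 0 for the 24 h response difference. No member was called (0 of 4) in the 6 comparisons that had a call when all probes set the scale, under quantile normalization, normexp, the summed signal or the deposited table. Other counts also fell to 0 on probes above background everywhere and on the brightest probe. They were the knockout at 12 h, the 24 h genotypes, the average and the response difference. The last 3 also fell to 0 with a lower floor, and the average and the response difference with no filter. Fitting only the groups compared gave 0 for knockout at 12 h and genotypes at 24 h, and 1 for untreated genotypes. How many of all miRNAs that fit called is not given here, so this 1 call cannot be weighed. In the main fit 28% of all miRNAs were called between untreated genotypes, and 0 of the 4. The scanning run as a block gave 2, miR-20b and miR-93, in both wild type comparisons, and 2 in the 24 h genotypes and the average. For treatment comparisons that block cannot remove a run effect. The settings also differed in calls over all 175 miRNAs. In wild type cells at 12 h the run block called 27 higher and 75 lower, the main fit 11 and 67. Quantile normalization called 0 and 10 there, and scaling on all probes 0. Without run 4 each treated group held 1 array, so counts from that fit are not given.

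Signs of called changes turned for miR-20b in the knockout at 12 h (-0.55 scaled on all probes, -0.048 with quantile normalization), for the 24 h genotype difference (0.35 summed signal, 0.89 deposited), the average (0.50 deposited) and the 24 h response difference (0.43 and 0.41). The change of miR-20b in the knockout at 24 h, not called, turned under the same settings (-0.47 and -0.053). Relative to the cluster, signs turned with deposited values in wild type cells at 24 h (-0.58) and between genotypes (0.99), and miR-106b turned to 0.33 in the knockout at 12 h without run 4. Causes were not tested, beyond the summed signal's excess on 1 miR-20b array. The deposited values were not scaled between arrays. Shared replicate numbers state no pairing: replicate differences correlated at 0.74 between untreated groups, 0.82 to 0.94 among treated ones and -0.66 to -0.45 between both kinds. With the replicate number as a block, the 24 h response difference of miR-20b kept its size (-0.59) and lost its call (adjusted p = 0.0767), giving 0 members called there. Relative to the cluster, miR-20b was then called in the knockout at 12 h (0.65, adjusted p = 0.0146) and in the response difference (-0.85, 0.0365); no other call of the 4 miRNAs changed. Signal over background limits miR-93 and the dimmer probes on run 4.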
